A study of Mus musculus with 10 samples.

Results

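The 10 genes described here encode the transcription factors that set up and maintain brown adipocytes: Prdm16, Ebf2, Zfp516, Pparg, Ppara, Cebpa, Cebpb, Irf4, Zic1 and Lhx8. They were taken by symbol from the 15075 genes of the deposited table, and each symbol matched 1 row. All 10 were among the 11244 genes tested, the genes whose mean in Control, in AdCKO or in both reached 10 normalized reads per kb of counted exon. Interscapular brown fat (iBAT) RNA came from 5 Control and 5 AdCKO C57BL/6 mice, 1 library per mouse, aged 20 weeks and kept at room temperature. AdCKO mice were Crls1 f/f with Adipoq-Cre, so that exon 4 of Crls1, the gene of cardiolipin synthase, was deleted where the adiponectin promoter was active. Control mice were Crls1 f/f without Cre, and their libraries carry the label wild-type. This promoter is active in white as well as brown adipocytes, so other fat depots of the same animals also lost the gene, whereas the vessel, immune and stromal cells of iBAT were not targeted.

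In AdCKO iBAT, Prdm16, Cebpa, Irf4, Ebf2 and Pparg were lower than in Control, Zfp516 and Lhx8 were higher, and Ppara, Cebpb and Zic1 were not called. Calls were made at an adjusted p under 0.01 (limma on log2(value + 1), Benjamini-Hochberg over all genes tested). The log2 fold changes ran from -1.29 for Prdm16 to 0.75 for Lhx8, with a median of -0.54 against -0.01 over all genes tested. Called changes were common in this tissue, at 53.6% of all genes tested, with 25.6% higher and 28.0% lower. The 7 of 10 factors that were called, 2 higher and 5 lower, are read against that background. The lower call of Pparg was the least stable, and under another scaling of the libraries its log2 fold change was 0.01.

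Brown adipocytes arise from mesodermal precursors through a cascade of such factors. PPARG and the C/EBP family drive the program shared by all fat cells, while PRDM16 and EBF2 direct it to brown-selective genes and hold back the muscle and white fat programs. ZFP516, PPARA and IRF4 act on thermogenic genes such as Ucp1, which encodes the uncoupling protein of brown fat, in response to cold or adrenergic signals. Zic1 and Lhx8 are used as markers of the interscapular depot rather than as drivers of heat production. Cardiolipin, the lipid made by the Crls1 product, is a phospholipid of the inner mitochondrial membrane.

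The sequences upstream of the counted transcripts are shown for Prdm16, Cebpa and Pparg. These are lower factors whose window lay outside the annotated span of the same gene. Ebf2 met this too and is not shown. The windows shown differ from each other in base composition and in short motifs. Each window covers the 250 bases before the transcript start in the table (mm9, the build of the table, read from the NCBIM37 genome), 5′ to 3′ on the strand of the gene. Capitals mark matches, on either strand, to CCAAT or to GGGCGG, known as the CCAAT box and the GC box.
Prdm16, chr4:154010983-154011232, minus strand: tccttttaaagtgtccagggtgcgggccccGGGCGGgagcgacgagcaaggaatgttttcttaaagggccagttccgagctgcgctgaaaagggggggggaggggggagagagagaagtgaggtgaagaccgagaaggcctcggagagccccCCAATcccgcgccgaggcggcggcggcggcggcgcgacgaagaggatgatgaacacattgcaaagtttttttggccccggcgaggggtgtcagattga
Cebpa, chr7:35904062-35904311, plus strand: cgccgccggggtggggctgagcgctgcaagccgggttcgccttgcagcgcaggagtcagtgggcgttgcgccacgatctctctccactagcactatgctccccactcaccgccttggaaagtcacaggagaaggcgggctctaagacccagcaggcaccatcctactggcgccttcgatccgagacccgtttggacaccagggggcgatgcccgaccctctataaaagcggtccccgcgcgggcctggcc
Pparg, chr6:115310989-115311238, plus strand: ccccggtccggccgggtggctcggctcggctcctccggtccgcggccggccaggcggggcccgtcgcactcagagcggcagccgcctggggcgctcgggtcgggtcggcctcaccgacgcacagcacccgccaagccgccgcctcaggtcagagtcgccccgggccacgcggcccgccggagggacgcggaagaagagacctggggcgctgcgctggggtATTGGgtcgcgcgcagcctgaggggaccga

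The Prdm16 window held a GC box at bases -220 to -215 from the start and a CCAAT box at -98 to -94. The Pparg window held a CCAAT box on the opposite strand at -30 to -26, and the window of Cebpa held neither motif. GC content was 62.4% for Prdm16, 66.4% for Cebpa and 78.4% for Pparg, against a median of 60.4% over the windows of all genes tested. The number of CG pairs was 22, 22 and 37 in the same order, against a median of 16.0. Over all 10 factors, 4 windows held CCAAT, against 35.3% of the windows of all genes tested, and 5 held GGGCGG, against 60.8%. Zic1 alone held the E-box CACGTG (8.54% of all windows). None of the 10 held TTGCNNAA for C/EBP (7.3%), TGATGNAA for C/EBP-ATF (1.85%), the EBF palindrome of TCCC and GGGA with 2 bases between them (0.916%) or the direct repeat of AGGTCA with 1 base between, which nuclear receptors bind (0.0445%). In the 3 windows shown, no match overlapped a match to another motif. These are matches to letters in a short window and not measured binding. The annotation gives 9 starts for Prdm16, 2 for Pparg and 1 for Cebpa. The windows of Prdm16 and Pparg lie before the outermost start only, and which start was used in iBAT was not tested.

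The libraries differed in more than the factors. Crls1 itself fell from 1060 ± 191 (SD, n = 5 mice) to 217 ± 26.4 normalized reads per kb, which is -2.27 on the log2 scale. Summed over genes, normalized reads came to 7615403 to 8171138 per Control library and 5419800 to 5843024 per AdCKO library, and depth before normalization is unknown. The summed level of 10 skeletal muscle markers, among them Acta1, Ckm and Myh4, ran from 460 to 497 in Control, was 281 and 289 in AdCKO 3 and 5, and was 6831, 26052 and 9829 in AdCKO 1, 2 and 4. The 10 macrophage markers, including Emr1, Cd68 and Csf1r, summed to between 505 and 1305 in Control and between 5978 and 8024 in AdCKO, and all 10 were higher. The markers of general adipocytes (Adipoq, Plin1 and Fabp4 among them) summed to 161501 to 195210 per Control library and 116355 to 134658 per AdCKO library, most of it Fabp4, and 4 of these 5 were lower. The 5 brown adipocyte markers, among them Ucp1, Cidea and Elovl3, summed to 61526 to 84204 and 18122 to 38682, also with 4 lower. Both sets were thus expressed in every library, at lower levels in AdCKO on the deposited scale. For the general set this depended on the scaling. With every library rescaled to the same total 1 general marker was lower, and after quantile normalization 0 were. Quantile normalization gives every library the same set of values, so the most abundant genes can move there only by rank. Fabp4, ranked 1 among all genes in Control, could not fall in that setting, so the 0 does not show that these markers were unchanged. Of the brown markers, 4 were lower and 1 higher under the same total, and 3 were lower and 0 higher after quantile normalization. Since the RNA came from whole tissue, fewer adipocytes and less RNA per adipocyte cannot be told apart in any value below.

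**Figure D1:**
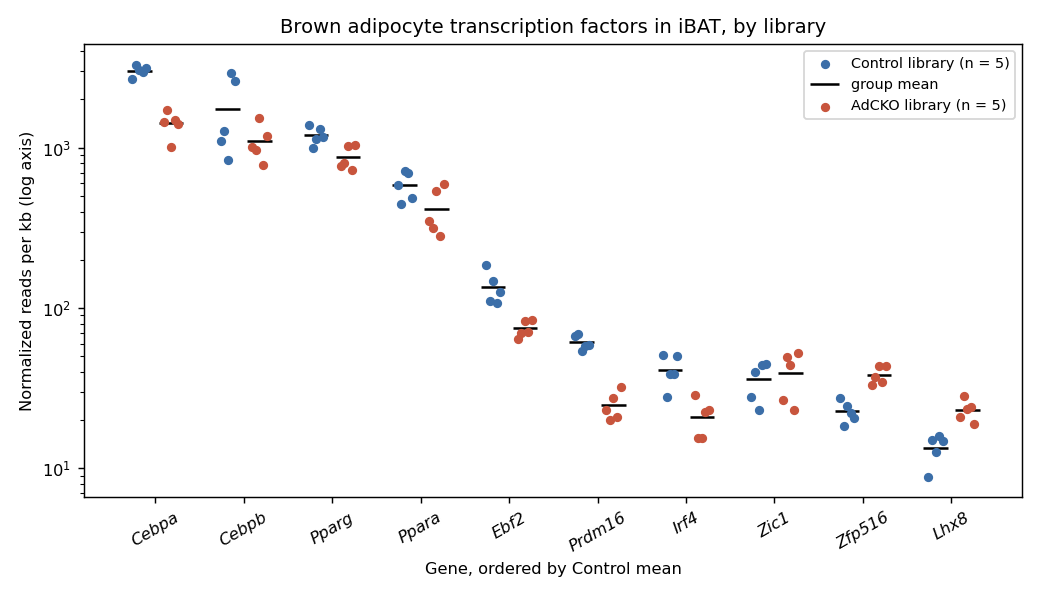
Level of each factor in normalized reads per kb (log axis) in the 5 Control libraries (blue) and the 5 AdCKO libraries (red), with black lines at the group means and genes ordered by the Control mean. The groups do not overlap for Cebpa, Ebf2, Prdm16, Zfp516 and Lhx8, and the Control values of Cebpb spread from 836 to 2917.

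The levels of the factors, which are per kb and so comparable between genes, spanned a wide range. In Control the order by mean was Cebpa at 3032, Cebpb at 1745, Pparg at 1197, Ppara at 586, Ebf2 at 135, Prdm16 at 61.3, Irf4 at 41.3, Zic1 at 36.0, Zfp516 at 22.6 and Lhx8 at 13.5. The ranges of neighbours overlapped for Cebpa and Cebpb, for Cebpb and Pparg, for Irf4 and Zic1, and for Zic1 and Zfp516, so these neighbours are not separated by their spread over mice. Within libraries, Cebpa nevertheless lay above Cebpb in each of the 5 Control mice. Among all 15075 genes Cebpa ranked 164 in Control and Lhx8 ranked 9978. In AdCKO the first 5 places were held by the same genes in the same order, and the rest followed as Zic1 at 39.2, Zfp516 at 38.2, Prdm16 at 24.7, Lhx8 at 23.1 and Irf4 at 21.1. There the ranges of Prdm16 and Lhx8 overlapped, whereas in Control the lowest Prdm16 value, 54.1, lay well above the highest Lhx8 value, 16.0.

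The general adipogenic factors were abundant, and Cebpa, Pparg and Cebpb differed in how far they moved. Cebpa encodes C/EBPα, which with PPARG sustains the mature adipocyte program, and its single exon lies on chromosome 7 of mm9 from 35904312 to 35906951 on the plus strand. Its values were 2676, 3301, 3054, 2973 and 3155 in Control and 1449, 1713, 1018, 1497 and 1416 in AdCKO. Every AdCKO library lay below every Control library. AdCKO averaged 46.8% of Control, with a log2 fold change of -1.11 (standard error 0.12, adjusted p = 7.35e-06 by limma). Rescaling every library to the same total, which moved the median of all genes up by 0.47, left Cebpa called at -0.63 (limma adjusted p = 0.00025).

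Pparg encodes the nuclear receptor that commits precursors to fat cells, and the counted transcript runs from 115311239 to 115440419 on the plus strand of chromosome 6. The annotation gives 2 starts for this gene, and counting on 1 transcript does not separate the forms made from them. Its values were 1383, 991, 1142, 1306 and 1161 in Control and 766, 798, 1022, 725 and 1040 in AdCKO. The 2 highest AdCKO libraries, replicates 3 and 5, overlapped the lowest Control library. The log2 fold change was -0.47 (standard error 0.12, adjusted p = 0.00536 by limma, exact permutation p = 0.024). The call was lost when libraries were set to the same total, at 0.01 (limma adjusted p = 0.92), and under quantile normalization, at -0.17 (limma adjusted p = 0.29). Leaving out 1 library at a time, it was also lost without Control 1, 4 or 5 (limma adjusted p = 0.0151, 0.0154 and 0.0113) and without AdCKO 1, 2 or 4 (limma adjusted p = 0.0152, 0.0142 and 0.0147).

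Cebpb encodes C/EBPβ, an early inducer of adipogenesis that also responds to hormones and stress, and lies on the plus strand of chromosome 2 from 167514415 to 167515932. Its values were 1100, 1274, 836, 2917 and 2597 in Control and 1006, 974, 1536, 779 and 1178 in AdCKO. Control 4 and 5 stood high, and the other 3 Control libraries lay within the range of AdCKO. The means were 1745 ± 944 and 1095 ± 285 (SD, n = 5 each), with a log2 fold change of -0.54 and a 95% interval from -1.24 to 0.17 (limma adjusted p = 0.16). The spread of Control thus leaves both a marked decrease and a slight increase within the interval. Without Control 4 the log2 fold change was -0.31, and without Control 3 it was -0.76 (limma adjusted p = 0.38 and 0.041). The exon of Cebpb overlaps an exon of Tmem189 on the other strand, and since the strand of counting is not stated, its reads may include some from Tmem189, which was higher in AdCKO by 0.41.

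Among the factors that direct precursors to the brown fate, Prdm16 and Ebf2 fell and Zfp516 rose. Prdm16 encodes a zinc finger coregulator that binds C/EBPβ and PPARG and sustains brown identity, and it lies on the minus strand of chromosome 4 from 153690234 to 154010982. Its values were 66.5, 69.3, 54.1, 58.1 and 58.5 in Control and 23.0, 20.1, 27.3, 20.8 and 32.3 in AdCKO. The lowest Control value was above the highest AdCKO value, and AdCKO averaged 40.3% of Control. The change of -1.29 (standard error 0.13, adjusted p = 2.61e-06 by limma) was the largest decrease of the 10 and ranked 1262 by p among all genes tested. It was -0.82 under the same total and -1.47 after quantile normalization, and it was called in both.

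Ebf2 encodes a helix-loop-helix factor that opens brown-selective chromatin and recruits PPARG to it, and lies on the plus strand of chromosome 14 from 67852129 to 68049789. Its values were 185, 110, 148, 107 and 125 in Control and 64.0, 70.2, 83.6, 70.9 and 84.3 in AdCKO. The groups did not overlap, though the Control libraries themselves spanned a wide range. This gave a log2 fold change of -0.83 (standard error 0.14, adjusted p = 0.000267 by limma). Under the same total it was -0.35 and no longer called (limma adjusted p = 0.044).

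Zfp516 encodes a cold-induced zinc finger protein that binds the Ucp1 promoter and interacts with PRDM16. Its values were 27.5, 18.4, 24.5, 22.2 and 20.6 in Control and 33.1, 36.9, 43.2, 34.6 and 43.4 in AdCKO. Every AdCKO library was above every Control library. AdCKO averaged 169% of Control, at 0.73 on the log2 scale (standard error 0.12, adjusted p = 0.000147 by limma). It was called as higher under both other scalings, at 1.20 with the same total and 0.50 after quantile normalization. Of the 10 factors, 5 had groups that did not overlap, 2 higher and 3 lower, against 50.9% of all genes tested, 24.5% higher and 26.4% lower. Each of these 5 had an exact two-sided permutation p of 0.0079, the smallest that 5 against 5 can give.

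Of the factors that tie brown fat to fasting, fatty acids and cold, Irf4 fell and Ppara was not called. Irf4 encodes an interferon regulatory factor that partners with PGC-1α at the Ucp1 gene and is also abundant in lymphocytes and some macrophages. The gene lies on the plus strand of chromosome 13 from 30841127 to 30858796. Its values were 50.6, 27.8, 38.7, 39.0 and 50.3 in Control and 28.9, 15.4, 15.5, 22.4 and 23.1 in AdCKO. AdCKO 1 lay just above the lowest Control library, Control 2, and the other 4 AdCKO libraries lay below Control. On the log2 scale Irf4 changed by -0.95 (standard error 0.20, adjusted p = 0.00102 by limma, exact permutation p = 0.016). It was -0.48 and no longer called when all libraries were set to the same total (limma adjusted p = 0.043).

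The AdCKO library highest in Irf4 was also the highest in lymphocyte markers. The summed level of 7 T cell markers was 254 in AdCKO 1, between 53.7 and 88.9 in the other 4 AdCKO libraries and between 35.3 and 75.8 in Control. The 7 B and plasma cell markers summed to 174 in AdCKO 1, between 29.6 and 42.7 in the other AdCKO libraries and between 26.4 and 31.4 in Control. Without AdCKO 1 the log2 fold change of Irf4 was -1.07 (limma adjusted p = 0.000437). Leaving out the AdCKO library highest in Irf4 lowers the AdCKO mean whatever made it high. The part of lymphocyte RNA in the Irf4 values was not tested.

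Ppara encodes the receptor that turns on fatty acid oxidation genes and is far more abundant in brown than in white fat, and lies on the plus strand of chromosome 15 from 85565994 to 85637281. Its values were 590, 443, 720, 693 and 487 in Control and 347, 315, 535, 280 and 598 in AdCKO. AdCKO 3 and 5 lay within the Control range and AdCKO 1, 2 and 4 lay below it. The log2 fold change was -0.54, with a 95% interval from -1.01 to -0.07 (limma adjusted p = 0.0425, exact permutation p = 0.087). It was -0.06 under the same total and -0.35 after quantile normalization (limma adjusted p = 0.82 and 0.19). With 1 library left out it ran from -0.41 without AdCKO 4 (limma adjusted p = 0.10) to -0.69 without AdCKO 5, where alone it passed the threshold (limma adjusted p = 0.00901).

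Of the 2 depot markers, Lhx8 rose and Zic1 was not called. Lhx8 encodes a LIM homeobox protein and lies on the minus strand of chromosome 3 from 153969258 to 153993524. Its values were 8.86, 14.9, 12.6, 16.0 and 14.9 in Control and 21.0, 28.1, 23.4, 24.3 and 18.9 in AdCKO. The groups did not overlap. On the log2 scale Lhx8 changed by 0.75 (standard error 0.15, adjusted p = 0.000976 by limma), but after quantile normalization it was 0.42 and not called (limma adjusted p = 0.033).

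Zic1 encodes a zinc finger protein that, in adult fat, marks the interscapular depot, and lies on the minus strand of chromosome 9 from 91255183 to 91260637. Its values were 27.8, 40.2, 23.3, 44.1 and 44.9 in Control and 26.8, 49.5, 43.9, 23.3 and 52.6 in AdCKO. The ranges nearly coincided. The log2 fold change was 0.09, with a 95% interval from -0.45 to 0.64 (limma adjusted p = 0.76). It was 0.56 under the same total and -0.10 after quantile normalization (limma adjusted p = 0.0497 and 0.77), 0.45 without AdCKO 1, 2 and 4 (limma adjusted p = 0.14), and slightly below 0 without Control 3, AdCKO 2 or AdCKO 5. An exon of Zic4 overlaps Zic1 on the other strand, and Zic4 itself was at 3.42 in Control and 3.82 in AdCKO.

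**Figure D2:**
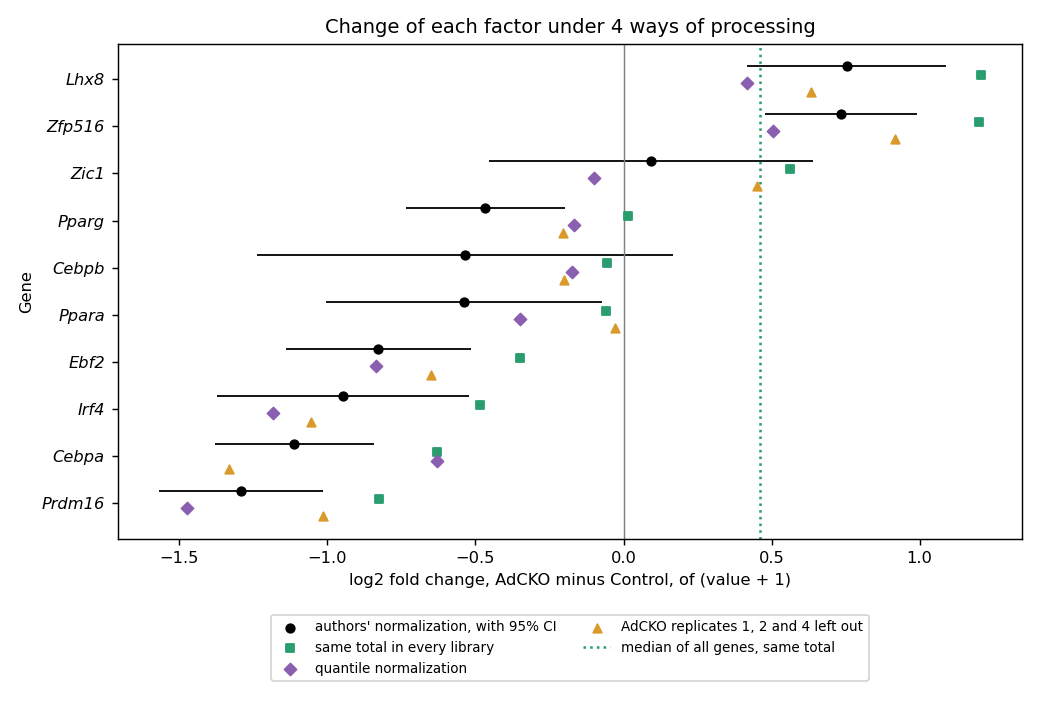
Log2 fold change of each factor, AdCKO minus Control, of the deposited values plus 1 (black, with 95% interval), with every library set to the same total (green), after quantile normalization (purple) and without AdCKO 1, 2 and 4 (orange). The dotted line marks the median of all genes with the same total, 0.46, so Pparg at 0.01 on that scale lies left of it, and Zic1 lies below 0 after quantile normalization but not in the other settings drawn.

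Setting all libraries to the same total ended 3 of the lower calls, those of Ebf2, Irf4 and Pparg. Under the same total 2 factors stayed lower (Prdm16 and Cebpa) and 2 higher, while 70.3% of all genes tested were called, 60.6% higher and 9.77% lower. After quantile normalization 4 factors were lower and 1 higher, while 53.6% of all genes tested were called, 22.5% higher and 31.1% lower. The calls split into 86.1% higher and 13.9% lower under the same total, against 47.7% and 52.3% on the deposited scale and 41.9% and 58.1% after quantile normalization. Relative to the median of all genes, Prdm16 was at -1.28 both on the deposited scale and with the same total, Pparg was at -0.46 and -0.45, and Zic1 at 0.10 and 0.10. After quantile normalization Pparg was at -0.09 relative to that median and Cebpa at -0.55.

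**Figure D3:**
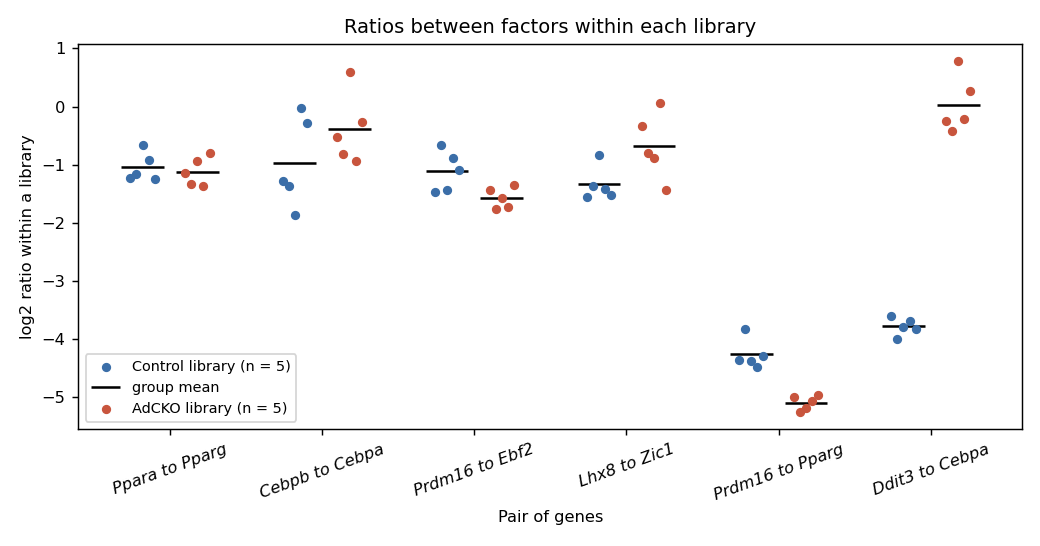
Log2 ratio of 1 gene to another within each library, for 5 Control (blue) and 5 AdCKO libraries (red), with black lines at the group means. The ratios of Prdm16 to Pparg and of Ddit3 to Cebpa do not overlap between the groups, whereas those of Ppara to Pparg lie over the same range.

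Ratios within a library are hardly moved when that library is set to another total, though they can move under quantile normalization. Of such ratios, 6 were tested by exact two-sided permutation with adjustment over the 6 at a threshold of 0.05. Prdm16 relative to Pparg was at -4.36, -3.82, -4.37, -4.47 and -4.29 on the log2 scale in Control and at -5.00, -5.24, -5.18, -5.06 and -4.97 in AdCKO. The ratio was lower by 0.83, and every AdCKO library lay below every Control library (exact p = 0.0079, adjusted p = 0.024). It was lower by 0.84 under the same total and changed by -1.31 after quantile normalization (adjusted exact permutation p = 0.024 and 0.016). The ratio of Ddit3 to Cebpa rose by 3.81, from -3.78 ± 0.14 to 0.03 ± 0.49 (SD, n = 5, exact p = 0.0079, adjusted p = 0.024).

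Ddit3 encodes CHOP-10, a stress-induced C/EBP relative that can pair with C/EBPα and C/EBPβ and block their binding. It was at 207 to 229 in Control and at 1214 to 1743 in AdCKO, so that in AdCKO 3 and 5 its level per kb exceeded that of Cebpa. The last exon of Ddit3 overlaps Mars on the other strand, which was lower by 0.89 on the log2 scale and is named here after its value was seen.

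The other 4 ratios did not pass the adjusted threshold. Prdm16 to Ebf2 changed by -0.47 (exact p = 0.040, adjusted p = 0.079), which after quantile normalization was -0.64 and passed the threshold (adjusted exact p = 0.016), and Lhx8 to Zic1 by 0.66 (exact p = 0.063, adjusted p = 0.095). Cebpb to Cebpa changed by 0.58 (exact p = 0.24, adjusted p = 0.29) and Ppara to Pparg by -0.07 (exact p = 0.63, adjusted p = 0.63). The log2 ratio of Ppara to Pparg was -1.04 in Control and -1.12 in AdCKO, each with an SD of 0.25 (n = 5), and its values overlapped throughout.

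**Figure D4:**
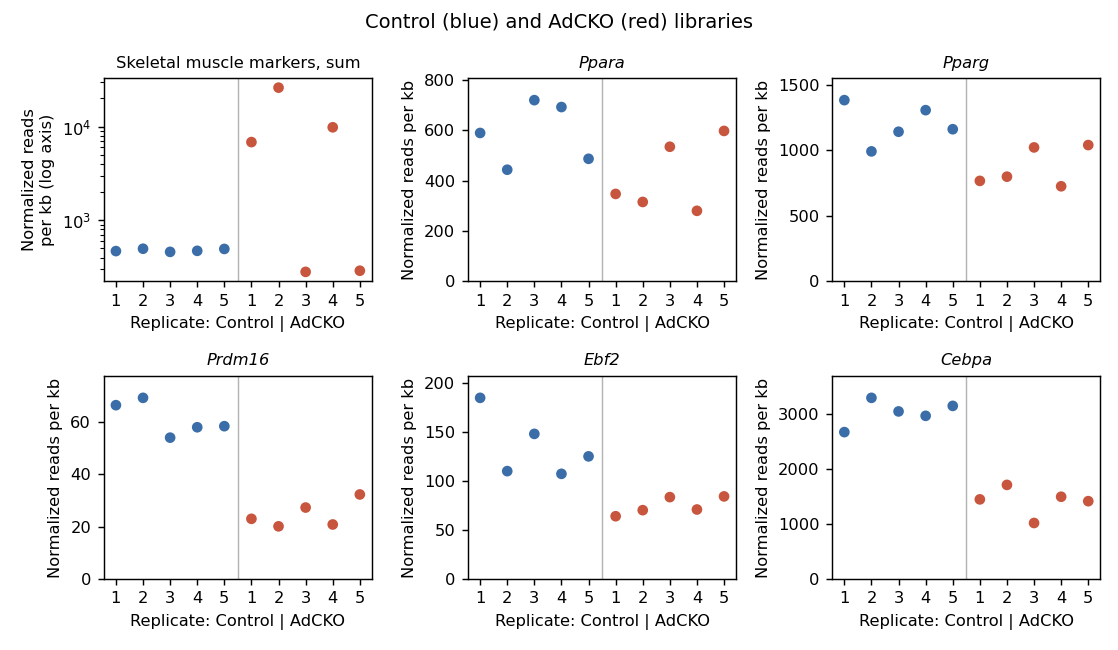
Summed level of 10 skeletal muscle markers (log axis) and the levels of 5 factors in normalized reads per kb, by library, Control in blue and AdCKO in red. AdCKO 3 and 5, at 281 and 289 in muscle markers, are the highest AdCKO libraries for Ppara, Pparg, Prdm16 and Ebf2 and the lowest for Cebpa.

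The factors also varied among the AdCKO libraries along with the muscle markers and other marker sums. AdCKO 3 and 5, where the sum of these markers was 281 and 289, both lay above AdCKO 1, 2 and 4 for Prdm16, Ebf2, Zfp516, Pparg, Ppara and Cebpb, a pattern shown by 15.8% of all genes tested. Both lay below the other 3 for Cebpa, as did 17.7% of all genes tested, and Irf4, Zic1 and Lhx8 were mixed. With AdCKO 1, 2 and 4 left out, 38.1% of all genes tested were called, 18.7% higher and 19.3% lower, and 4 of the 10 factors were called. Prdm16 was then at -1.01, Cebpa at -1.33, Irf4 at -1.05 and Zfp516 at 0.92, whereas Ebf2 at -0.65, Lhx8 at 0.63, Pparg at -0.21 and Ppara at -0.03 were not called (limma adjusted p = 0.0147, 0.023, 0.21 and 0.91). This setting was chosen after seeing the data and leaves 2 AdCKO libraries. Brown adipocyte markers summed to 32717 and 38682 in AdCKO 3 and 5, and to 23773, 24762 and 18122 in AdCKO 1, 2 and 4. Endothelial markers were likewise higher in AdCKO 3 and 5. Smooth muscle, progenitor and stromal, T cell and B cell markers were lower there, while general adipocyte and macrophage sums were mixed. The part of muscle, brown adipocyte or other RNA in the values of these factors was not tested. Myod1, Myf6 and Pax3, the listed myogenic factors found in the table, were too low to test, with means of at most 7.55.

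Further regulators of brown fat were taken from a list of 29 coregulators and transcription factors, of which 27 were tested. Of these, 2 were higher, 9 lower and 16 not called, with a median log2 fold change of -0.17 against -0.01 over all genes tested, of which 25.6% were higher and 28.0% lower. The balance turned under the same total in every library, to 14 higher and 2 lower with a median of 0.31. Over all genes tested that median was 0.46, with 60.6% higher and 9.77% lower, so the list turned along with the other genes. The lower genes included Klf15, a fasting-responsive Krüppel-like factor, at -1.56, and the thyroid hormone receptors Thrb, at -1.25, and Thra, at -0.67 (limma adjusted p = 1.75e-05, 2.17e-06 and 3.77e-05). Ppargc1a encodes PGC-1α, the cold-induced coactivator of mitochondrial genes that works with PPARG, PPARA and IRF4, and it went the other way. Its values were 135, 95.6, 83.9, 87.6 and 101 in Control and 452, 327, 901, 247 and 725 in AdCKO, which is 2.24 higher on the log2 scale (standard error 0.30, adjusted p = 3.69e-05 by limma). AdCKO 3 and 5 were the highest for Ppargc1a too, and no AdCKO library came near Control. Rbl1, the pocket protein p107, was also higher, by 0.92, but reached the level needed for testing in AdCKO only (means 5.99 in Control and 12.2 in AdCKO).

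Relatives of the factors did not move as 1 block with them. Besides Ddit3, at 2.70, Cebpd rose by 0.83 and Cebpg was at -0.02 and not called, while Cebpe was not found in the table. Of the 6 tested PPAR, RXR and LXR partners, 4 were lower and none higher, with Nr1h3 at -0.37, Ppard at -0.42, Nr1h2 at -0.29 and Rxrg at -0.50, but with the same total none of the 6 was called and their median was 0.15. Ebf3, a close relative of Ebf2, fell by 1.11, and Ebf1 was at 0.13 and not called. Lhx6, the relative of Lhx8 that could be tested, was higher by 0.89.

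Of 7 tested interferon regulatory factors besides Irf4, 4 were higher, none was lower and 3 were not called. The higher ones were Irf5, Irf7, Irf8 and Irf9, at 2.38, 2.87, 1.99 and 0.70, while Irf1 was at 0.12, Irf2 at 0.18 and Irf3 at -0.02. Irf9 was not called after quantile normalization, at 0.66, nor without AdCKO 1, 2 and 4, at 0.43 (limma adjusted p = 0.0114 and 0.114). Irf5 spanned 8.94 to 22.4 in Control and 54.3 to 93.9 in AdCKO, while Irf8 spanned 9.92 to 29.1 and 38.3 to 97.9. Both genes are abundant in macrophages, and the macrophage markers rose in the same libraries, from a median of 561 in Control to 6242 in AdCKO. Control 3 was the highest Control library for Irf5, Irf8 and the macrophage markers. Their part in the IRF values was not tested.

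**Figure D5:**
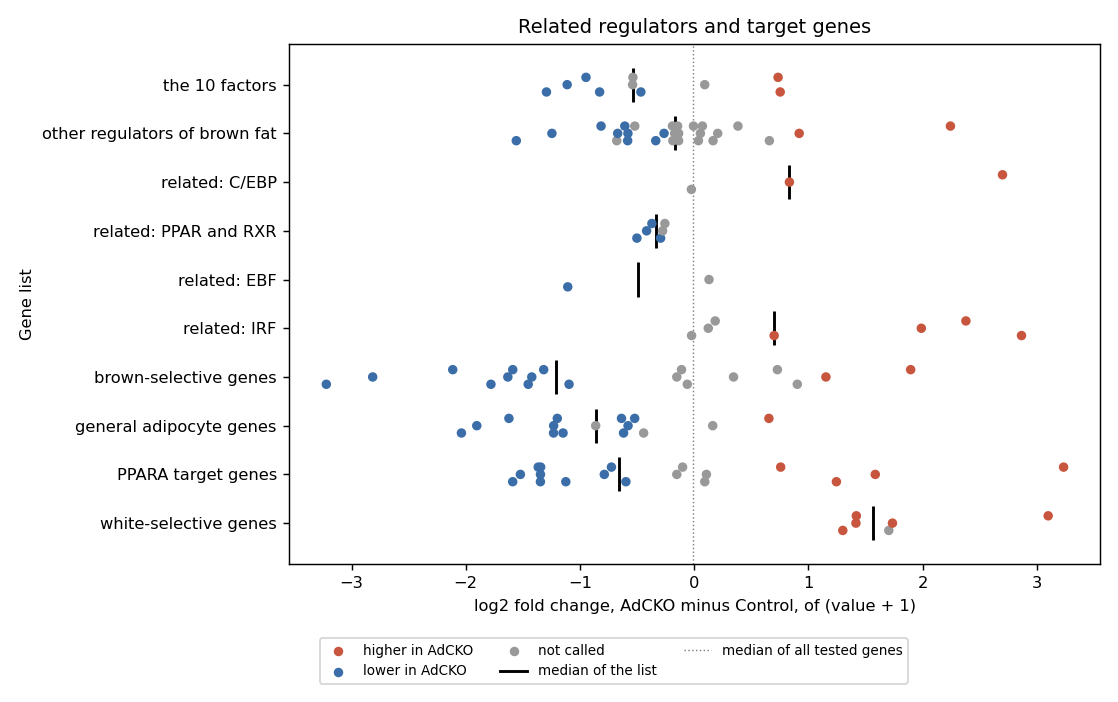
Log2 fold change, AdCKO minus Control, of each tested gene in the factors and in the related lists (red higher, blue lower, grey not called), with a black line at the median of each list and a dotted line at that of all genes. Under the same total the median of the other regulators was 0.31, that of the PPAR and RXR list 0.15, and those of the brown-selective, general adipocyte and PPARA lists stayed below 0.

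Target genes of these factors, and genes selective for brown or white fat, are given as 4 lists. Over all genes tested, 25.6% were higher and 28.0% lower. All the brown adipocyte markers summed above are also in the brown-selective list, so the counts of both share these genes. Whether the factors act on each selective gene was not tested. Of 18 brown-selective genes, 10 were lower, 2 higher and 6 not called, with a median of -1.21. Acot11, a thermogenesis-linked thioesterase, was at -3.22, Slc27a2, a fatty acid transporter, at -2.81, Mpzl2 at -2.11 and Otop1 at -1.78. Bmp8b, a secreted regulator of thermogenesis, went the other way at 1.15, as did the interferon-responsive gene Epsti1 at 1.90. Ucp1 was at -1.42 and, after quantile normalization, at -0.40 and not called (limma adjusted p = 0.21). It ranked 6 among all genes in Control, and a gene so abundant can move under quantile normalization only by rank.

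Of 15 genes of all adipocytes that PPARG and C/EBPα activate, 11 were lower, 1 higher and 3 not called, with a median of -0.86. All the general adipocyte markers summed above are among these 15, so the counts of both are not separate results. Gpd1, which makes glycerol 3-phosphate for triglycerides, was at -2.04, the lipases Pnpla2 and Lipe at -1.23 and -1.20, and the acyltransferase Agpat2 at -1.23. Lpl, lipoprotein lipase, was the exception and rose by 0.65. Under the same total 7 were lower and 2 higher. After quantile normalization 5 were lower and 2 higher, and the median was -0.12 against -0.08 over all genes tested. Many of these genes are abundant, which limits how far quantile normalization lets them move.

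Of 18 tested PPARA target genes, 10 were lower, 4 higher and 4 not called, with a median of -0.66. The lower ones are genes of mitochondrial fatty acid oxidation, such as Hadhb at -1.59, Etfdh at -1.52 and Cpt2 at -1.37, together with the peroxisomal genes Ehhadh and Pex11a. The higher ones were the hormone gene Fgf21 at 3.24, Cpt1a, the liver form of the carnitine transferase, at 1.59, the lipid droplet coat gene Plin2 at 0.76 and Acot2 at 1.25. Of 6 tested white-selective genes, 5 were higher and none lower, with a median of 1.56, among them Nnat at 3.10, Slc7a10 at 1.74, Retn at 1.42 and Agt at 1.30. Agt reached the level needed for testing in AdCKO only (means 6.31 in Control and 17.2 in AdCKO). Markers of progenitor and stromal cells, which sit beside the adipocytes and include Pdgfra, Ly6a and Cd34, rose in the same libraries from between 1263 and 1664 to between 4458 and 6732, with 7 of 8 tested higher, and their part in the white-selective values was not tested.

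The pattern of each called factor over the 10 libraries was shared by many genes. By Pearson r of log2(value + 1), given as a description over libraries that fall into 2 groups, the genes most like Prdm16 were Acaa2 (r = 0.994), Vwa8 (0.992) and Ecsit (0.992), and 1589 genes had an r above 0.9. Cebpa was most like Aldh2 (r = 0.994), with 1456 genes above 0.9. Ebf2 was most like Dnm1l (r = 0.977), with 269 genes above 0.9, Pparg most like Btbd3 (r = 0.962), with 101, and Irf4 most like Dclre1a (r = 0.959), with 63. Of the higher factors, Zfp516 was most like Prkci (r = 0.98), with 328 genes above 0.9, and Lhx8 most like Atp6v1g1 (r = 0.986), with 212.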

How the data were processed

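The authors isolated polyadenylated iBAT RNA, used STAR to map the reads to mm9 and iRNA-seq to count those on exons of 1 RefSeq transcript per gene, and scaled the counts with DESeq2. Versions and the strand of counting are not given in the sources used here. The deposited values are a signal rather than counts, in normalized reads per kb of exon. Low values hold no steps of whole reads, so depth is unknown, no counting interval is given, and fold changes of low genes are understated. The authors also deposited fold changes, p-values and lists of called genes from their own comparison, which were not used.

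Values were compared as log2(value + 1) with limma 3.58.1 in R 4.3.3 (intensity trend, two-sided, Benjamini-Hochberg over 11244 genes, threshold 0.01). Each mouse is 1 replicate. Single values and the 6 ratios were also tested by exact permutation. On simulated data with 11244 genes, 96.7% of 91 genes changed by 1 on the log2 scale were recovered. Of 109 genes changed by 2, 99.1% were recovered, and 0 unchanged genes were called. The simulation gave both groups the spread of Control, independent between genes, with few changed genes and no shift in totals. Real AdCKO libraries correlated at 0.957 to 0.989 with each other, against 0.985 to 0.995 within Control, so recovery in the real data may be poorer. Windows and motifs were read with Python 3.11.15 from the NCBIM37 genome, in which all 15075 genes lay within the chromosome lengths. Gene overlaps came from its annotation.

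The factors and lists were chosen with earlier results of these data known. Named genes are all 10 factors, Crls1, Ucp1, the genes of the ratios, at most 4 genes per list with the smallest p, called genes against a list's majority, the first 3 of each marker list, and up to 3 genes most like each called factor. Some items that this rule names are not reported here. PPARA targets named beyond this rule (Ehhadh, Pex11a), Tmem189, Zic4, Mars, Igj and Cd4 were picked with their values in view. Alternative settings changed the pseudocount to 0.1 or 10, dropped the filter or lowered it to a mean of 1, and used the same total of normalized reads in every library, quantile normalization, limma without the trend or with robust fitting, a block for the replicate number, all libraries but 1, or an adjusted p of 0.05. Leaving out AdCKO 1, 2 and 4, and the other scalings of the ratios, were added after seeing the data.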

Additional observations from a re-analysis of the deposited data

How the results depend on the processing

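The factors called higher stayed at 2 and those called lower at between 4 and 6 under other pseudocounts, filters, fits and thresholds. With each library left out in turn, 2 were higher throughout, and between 4 and 6 were lower. Setting all libraries to the same total left 2 lower, and after quantile normalization 1 was higher. Without AdCKO 1, 2 and 4, 1 was higher and 3 were lower. Pparg was at 0.0146 with the same total. Zic1 was at -0.10 after quantile normalization and, with each library left out, between -0.0484 and 0.26. Under the same total, 14 other regulators were higher and 2 lower, 0 of the PPAR and RXR list were lower, 1 EBF and 7 IRF genes were higher, 6 brown-selective genes were higher, and of the general adipocyte genes 2 were higher and 7 lower. After quantile normalization, with 22.5% of all genes tested higher and 31.1% lower, 2 of the PPAR and RXR list were lower. Of the brown-selective genes 4 were then higher and 9 lower, and of the general adipocyte genes 2 were higher and 5 lower. Without AdCKO 1, 2 and 4, 18.7% of all genes tested were higher and 19.3% lower. In that setting 3 other regulators were higher and 4 lower, and 1 C/EBP gene was higher and 0 lower. The cause was not tested. After quantile normalization, tried for the ratios after seeing the data along with the same total, Prdm16 to Ebf2 changed by -0.64 and passed the threshold. With 1 library left out, the ratio of Ppara to Pparg changed by between -0.15 and 0.0226, turning without Control 3. Prdm16 to Ebf2 changed by between -0.56 and -0.35 and passed the threshold without Control 1 or 3, and Lhx8 to Zic1 by between 0.48 and 0.85, passing without Control 3 or AdCKO 5. Same-numbered libraries of the 2 groups correlated at between -0.27 and 0.10 in their deviations from the group means. These correlations cannot settle whether the numbers pair the mice, which the labels do not state. With the replicate number as a block, 2 factors were higher and 4 lower, since Pparg at -0.47 had a limma adjusted p of 0.0147, and 2592 of all genes tested were higher and 2838 lower, against 2879 and 3152. Without known depth, low factors such as Lhx8 carry an error that only the spread between mice describes.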

Other observations

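Markers of other cell types of the depot were measured in the same libraries. All 5 smooth muscle markers, including Myh11, Acta2 and Tagln, were higher in AdCKO iBAT, with a summed level of 452 to 621 in Control and 1150 to 1816 in AdCKO. Of 8 endothelial markers, 3 were higher and none lower, Pecam1 at 0.55 being called and Cdh5 at 0.02 and Kdr at -0.40 not called. Under the same total in every library 7 of these 8 were higher, as were 60.6% of all genes tested, and the median of the list relative to that of all genes was 0.12 there and 0.11 on the deposited scale. Of 3 tested B and plasma cell markers none was called by limma, although Igj had an unadjusted p of 0.0056, and of 5 tested T cell markers 1, Cd4, was higher, by 1.48, with the highest values of both lists in AdCKO 1.

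No factor had a single library far from the others of its group by Dixon's test, run on 20 groups of 5 libraries. This test can miss libraries that stand apart together, as Control 4 and 5 did for Cebpb. Prdm16 varied little among Control mice, with an SD of 10.4% of the mean, and Cebpa varied less, at 7.70%, whereas Cebpb varied by 54.1%.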
